A study of Mus musculus with 52 samples.

Results

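The genes described here are 32 components, regulators and receptors of the complement system, measured by RNA sequencing of whole mouse tumors. They were chosen by gene name from the 27525 genes of the table of normalized counts, by a rule that uses no measured value, although earlier results of these data were known when the list was made. The tumors were grown under the skin of male C57BL/6NHsd mice, 8 to 10 weeks old, from KxPxCx pancreatic cancer cells (KPC), a single cell line from the tumor of a mouse that carried Trp53 LSL.R172H/+ and Pdx1-Cre. In that mouse the Pdx1 promoter drove Cre in pancreatic cells. The hosts were not stated to carry any engineered allele, so the 4 groups shared the tumor line and host strain and differed in treatment. Control mice, called untreated here, received neither agent, and the sources used here do not say whether they were injected with vehicle. ADU-S100, an agonist of the innate DNA-sensing adaptor STING, was injected into the tumor once on day 0 at 2 µg. The agonistic antibody 4H8 against the lymphotoxin-β receptor (anti-LTβR) was given intraperitoneally at 100 µg, 4 times until day 10. The combination group received both. Tumors were taken on day 14, and each group held 8 individually sequenced tumors, with 12762453 to 15591986 reads counted per library. The labels give all 32 tumors the name of 1 experiment and name no batch within it. The study describes its bulk data in one place as a single experiment and in another as combined experiments, so an effect of experiment within these tumors was not tested.

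Complement is a set of plasma and membrane proteins that act as a cascade of proteases. The classical route starts when C1q binds antibody or a surface and activates C1r and C1s, the lectin route starts with ficolins or collectins and the MASP proteases, and the alternative route amplifies deposition of C3. All routes meet at C3, and the late components C5 to C9 form a membrane pore. Regulators such as C1 inhibitor, CD55 and CD59 hold the cascade back on host cells, and receptors on myeloid cells read its cleavage products. The liver makes most plasma complement, but macrophages, fibroblasts, endothelium and tumor cells make components locally.

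Expression of 15 of the genes changed between combination-treated and untreated tumors, and 14 of these 15 were higher with the combination. The classical proteases C1ra and C1s1, their inhibitor Serping1 and the integrin chain Itgb2 were above the highest untreated tumor in each of the 8 combination tumors, and the membrane regulator Cr1l was lower in all 8. With anti-LTβR alone 7 genes changed, and with ADU-S100 alone none did. A gene was called changed at an adjusted p below 0.05 in limma, fitted to log2(normalized count + 1) over all genes that passed a filter on low counts, with Benjamini-Hochberg adjustment over the same genes. The 15 called were of 29 that passed the filter for the combination against untreated tumors, where 43.2% of all genes tested were called, so the share of genes called lay near the background. Of the 29, 14 were called higher, against 19.6% of all genes tested, and 1 lower, against 23.6%. Over all genes, 3310 of 7305 calls were higher, and 3275 of 6491 with edgeR scaled by library totals. The median log2 change was 0.46 over the 29 genes and -0.02 over all genes tested. Groups did not overlap for 5 of the 29, against 10.7% of all genes. Only 4 genes (C1ra, C1s1, C3 and C7) also passed a change of 2-fold, against 6.12% of all genes. All fold changes below are on the log2(normalized count + 1) scale, and for genes with few counts the added 1 makes them too small. In whole tumors, a change in the number of cells of a type and a change in RNA per cell cannot be told apart.

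**Figure D1:**
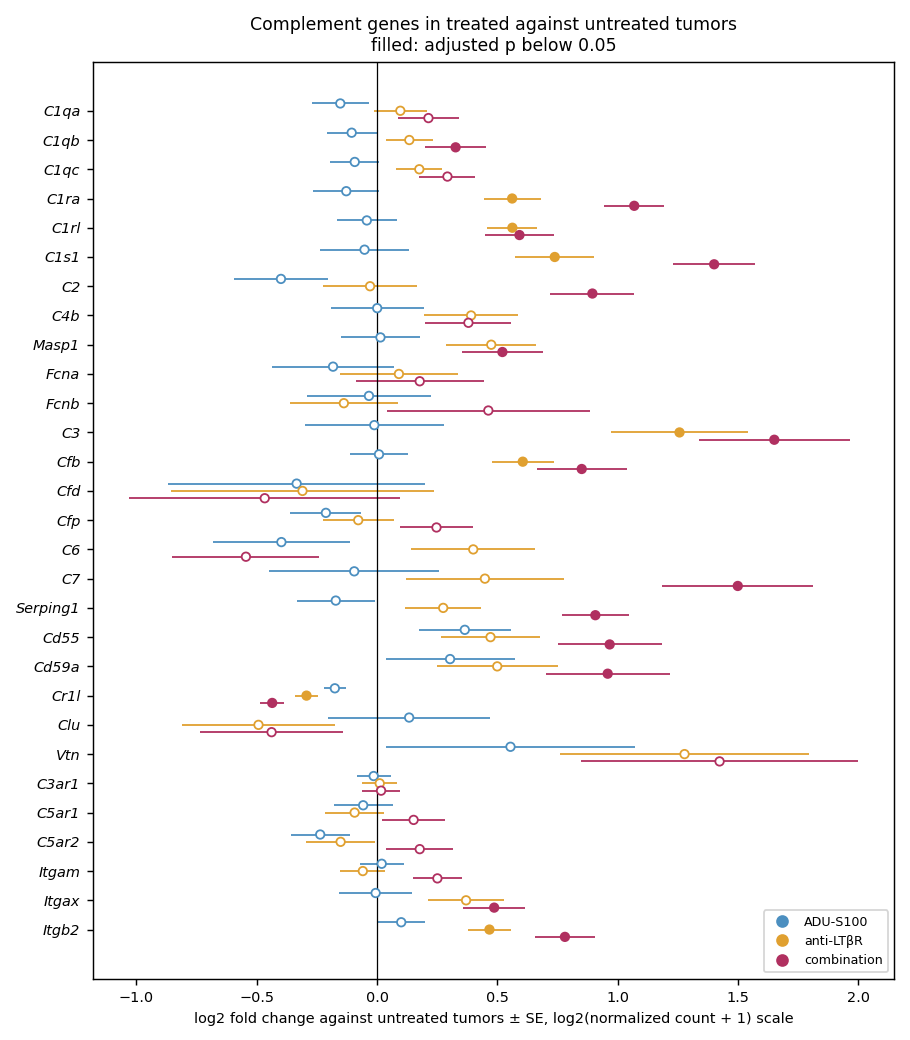
Log2 fold change against untreated tumors (x axis, ± SE) of the 29 complement genes that passed the filter (y axis, ordered by role), for ADU-S100 (blue), anti-LTβR (orange) and the combination (crimson), with filled points for an adjusted p below 0.05. No ADU-S100 point is filled, 7 anti-LTβR points and 15 combination points are, and C3, C7 and C1s1 lie farthest to the right among the filled combination points.

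Levels of different genes were compared per kilobase of exon, from GENCODE M21 gene models. In untreated tumors the highest medians were those of C1qa (4898 normalized counts per kilobase), C1qb (3917) and C1qc (2647), the chains of the classical recognition protein C1q. Serping1 (1517) and then C3 (1233) followed. C4b, Cfb, C1ra and Cfd had medians of 475 to 496 per kilobase and did not differ beyond the spread of C4b (SD 200.4, n = 8). In combination tumors C3 lay higher in this order, at 4065 normalized counts per kilobase, between C1qb (5441) and C1qc (3535). The lowest levels were those of Vsig4, Cfi and Cr2, at 2.98, 2.26 and 0.302 per kilobase in untreated tumors.

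Several of the genes lie side by side in the genome. Positions are given for GRCm38, since the annotation used here is of that build. C1rl (chr6:124493113-124510643), C1ra (chr6:124512405-124523443) and C1s1 (chr6:124530345-124542359) are neighbours on chromosome 6, with the near copies C1rb (chr6:124570294-124581171) and C1s2 (chr6:124624625-124636085) after them. C2 (chr17:34862604-34898265) and Cfb (chr17:34856374-34862518) adjoin on the same strand of chromosome 17, with C4b (chr17:34728380-34743882) nearby. The 3 C1q genes share chr4:136880129-136898803.

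The sequences around the start sites of C1ra, its copy C1rb, C1s1, C7 and C3 are shown because C1ra, C1s1, C7 and C3 are the 4 genes that changed by more than 2-fold and C1rb went the other way from C1ra. They are RefSeq sequences on GRCm38.p6, 250 bases before to 50 after the annotated start, written 5′ to 3′ on the strand of the gene. C1s1 has a second RefSeq start, whose window (chr6:124542272-124542571) is not shown. Capitals mark the core of the site for STAT factors (GAS), TTCNNNGAA.
C1ra (chr6:124512371-124512670, plus strand): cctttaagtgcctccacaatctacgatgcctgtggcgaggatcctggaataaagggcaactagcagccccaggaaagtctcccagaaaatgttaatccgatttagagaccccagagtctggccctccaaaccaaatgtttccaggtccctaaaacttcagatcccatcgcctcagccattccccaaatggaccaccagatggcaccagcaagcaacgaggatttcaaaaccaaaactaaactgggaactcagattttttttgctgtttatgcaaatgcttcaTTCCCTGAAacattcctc
C1rb (chr6:124570180-124570479, plus strand): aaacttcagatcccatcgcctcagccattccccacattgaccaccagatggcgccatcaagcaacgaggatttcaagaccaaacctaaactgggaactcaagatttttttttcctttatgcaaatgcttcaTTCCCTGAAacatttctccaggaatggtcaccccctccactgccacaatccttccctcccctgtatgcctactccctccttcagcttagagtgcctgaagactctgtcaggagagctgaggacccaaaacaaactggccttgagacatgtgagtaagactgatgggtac
C1s1 (chr6:124542310-124542609, minus strand): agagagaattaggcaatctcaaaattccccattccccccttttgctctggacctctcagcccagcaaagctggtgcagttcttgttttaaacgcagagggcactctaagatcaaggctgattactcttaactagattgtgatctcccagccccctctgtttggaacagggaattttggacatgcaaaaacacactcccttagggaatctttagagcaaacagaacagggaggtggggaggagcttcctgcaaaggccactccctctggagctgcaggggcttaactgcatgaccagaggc
C7 (chr15:5063724-5064023, minus strand): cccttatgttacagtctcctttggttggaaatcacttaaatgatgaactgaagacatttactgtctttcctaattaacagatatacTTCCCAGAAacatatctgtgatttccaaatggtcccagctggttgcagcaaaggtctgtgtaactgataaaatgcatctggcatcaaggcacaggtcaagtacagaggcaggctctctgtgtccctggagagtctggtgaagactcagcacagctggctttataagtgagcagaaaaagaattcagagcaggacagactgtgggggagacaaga
C3 (chr17:57228087-57228386, minus strand): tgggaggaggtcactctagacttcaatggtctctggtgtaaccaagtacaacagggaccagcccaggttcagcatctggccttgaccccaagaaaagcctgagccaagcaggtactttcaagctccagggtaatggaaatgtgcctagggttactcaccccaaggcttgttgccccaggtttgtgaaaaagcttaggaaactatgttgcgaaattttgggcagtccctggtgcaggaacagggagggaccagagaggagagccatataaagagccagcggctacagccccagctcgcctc

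Promoters of 23 of the 32 genes were matched in this table, and those of C2, Cfb, Itgb2, Serping1, C1qa, Masp1, Cfi, Clu and C4b were not. The GAS core, searched on both strands, was in 8.3% of all 32851 promoters and in 3 of the 23 genes, C1ra, C7 and Vtn. In C1ra its first base lay 32 bases after the RefSeq start, and in C7 it lay 164 bases before it. C1rb held the same 9 letters as C1ra, 119 bases before its RefSeq start. The RefSeq starts of C1ra, C1rb and C7 differ from the GENCODE starts, so these distances hold for RefSeq alone. C1ra and C1rb are not compared by them. The core of the interferon-stimulated response element, a pair of GAAA blocks 2 bases apart or the same letters on the other strand, was in 3.44% of all promoters and in those of Cd59a and Vtn. The NF-κB consensus was in 8.46% of all promoters and in that of C1qc. A match describes letters in a window and is not a measured binding site.

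Among the classical components, the protease genes rose and the C1q chains had smaller changes. C1ra encodes the protease C1r, which C1q activates first. Its normalized count had its lowest, median and highest values at 1134, 1416 and 1986 in untreated tumors, 1023, 1240 and 1865 with ADU-S100, 1537, 2096 and 2708 with anti-LTβR, and 2383, 2944 and 4117 with the combination. The combination was above every untreated tumor, with a log2 fold change of 1.07 (SE 0.125, limma adjusted p = 1.82e-05). C1s1 encodes C1s, the protease that C1r cuts and that in turn cuts C4 and C2. Its lowest, median and highest counts were 1239.8, 2082 and 2994 in untreated tumors, 1469, 1772 and 2916 with ADU-S100, 2254, 3251 and 4427 with anti-LTβR, and 4144, 4954 and 7579 with the combination. Here too no combination tumor overlapped the untreated group, and the log2 fold change was 1.40 (SE 0.169, limma adjusted p = 2.27e-05).

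C1rl encodes a protease related to C1r. It ranged from 72.8 to 124 (median 93.6) in untreated tumors, from 69.4 to 119 (92.8) with ADU-S100, from 115 to 156 (140) with anti-LTβR, and from 100.4 to 184 (153) with the combination. The combination rose by 0.59 (SE 0.145, limma adjusted p = 0.00364), and 5 of its 8 tumors exceeded every untreated tumor. C2, which supplies the protease subunit of the classical C3 convertase, ranged from 184 to 376 (median 286) in untreated tumors, from 143 to 375 (194) with ADU-S100, from 178 to 421 (283) with anti-LTβR, and from 343 to 712 (534) with the combination. Its log2 fold change with the combination was 0.89 (SE 0.174, limma adjusted p = 0.000705), with 6 of 8 tumors above all untreated tumors.

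C1qb passed the threshold by a small margin. It ranged from 3398 to 6174 (median 4262) in untreated tumors, from 3347 to 4610 (4262) with ADU-S100, from 4389 to 5351 (4998) with anti-LTβR, and from 4337 to 7007 (5920) with the combination. Its log2 fold change was 0.33 (SE 0.126, limma adjusted p = 0.0457), and only 3 combination tumors exceeded all untreated ones. The call was lost without the low-count filter (adjusted p = 0.0602), with edgeR's TMM scaling (0.0555) and with only the libraries above 14000000 reads (0.242). It was also lost in most limma fits with 1 library left out (adjusted p = 0.0646 to 0.089). The other C1q chains did not pass, C1qa at 0.21 (95% interval -0.06 to 0.48, adjusted p = 0.186) and C1qc at 0.29 (0.05 to 0.54, adjusted p = 0.0517). C1qc was called with DESeq2 on recovered reads (adjusted p = 0.03), with edgeR scaled by library totals (0.0316) and in a joint limma fit of all 4 groups (0.014). C4b, a C4 gene whose product joins C2 in the convertase, averaged 3625 ± 354 (SD, n = 8) with the combination and 2949 ± 1141 (SD, n = 8) in untreated tumors, and did not pass (log2 0.38, limma adjusted p = 0.0964).

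**Figure D2:**
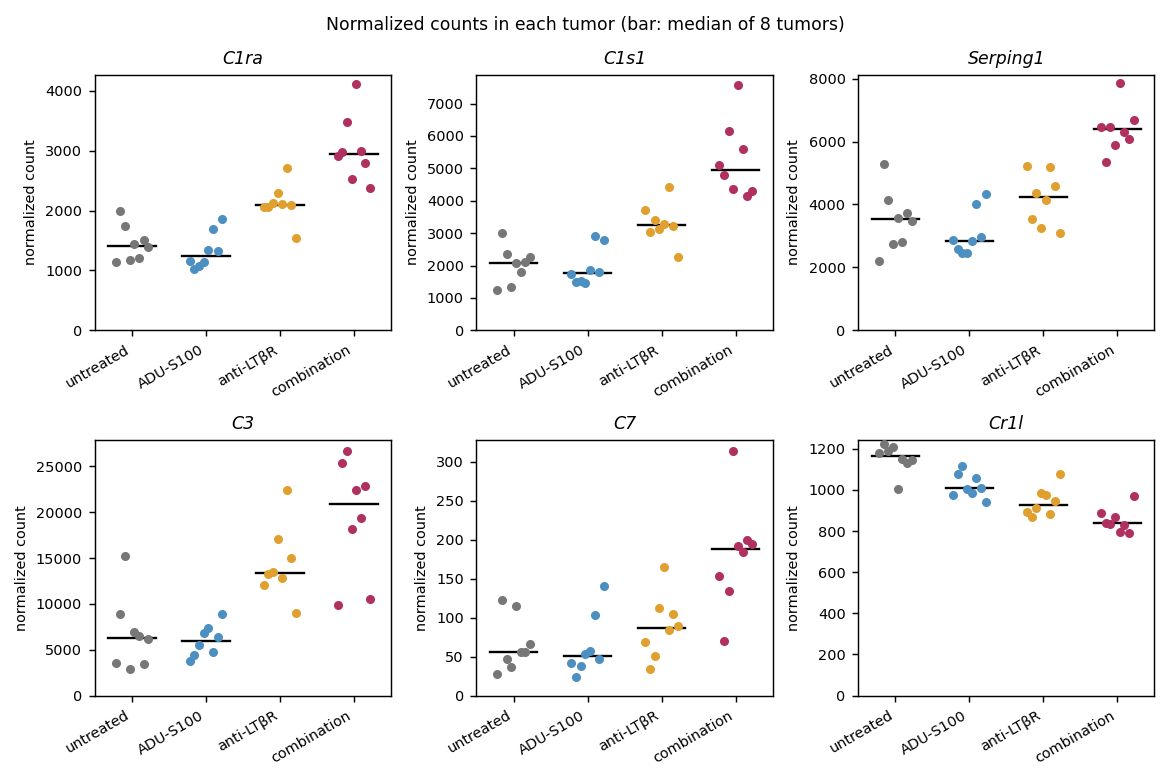
Normalized counts (y axes, linear from 0) of C1ra, C1s1, Serping1, C3, C7 and Cr1l in each of the 8 tumors of the 4 groups (x axes), with a bar at the median. C1ra, C1s1 and Serping1 were higher in every combination tumor than in any untreated tumor, C3 and C7 overlapped through 2 and 1 combination tumors, and Cr1l was lower in every combination tumor.

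In the lectin route, Masp1, whose protein is a protease of that route, was the gene that changed. It ranged from 185 to 407 (median 292) in untreated tumors, from 211 to 341 (331) with ADU-S100, from 240 to 548 (434) with anti-LTβR and from 305 to 529 (423) with the combination. The combination was 0.52 higher on the log2 scale (SE 0.168, limma adjusted p = 0.0189), with 5 of 8 tumors above all untreated tumors. The ficolins Fcna and Fcnb, which recognise sugars on surfaces, did not pass. Fcna lay between 40.6 and 216 and Fcnb between 15.0 and 205 over all 32 tumors, and their log2 changes of 0.18 (95% interval -0.38 to 0.74) and 0.46 (-0.43 to 1.35) were within the spread between tumors. Single tumors moved both, Fcna to 0.39 without untreated tumor 3 (216) and to 0.06 without combination tumor 7 (150.2), and Fcnb to 0.16 without combination tumor 7 (205) and to 0.26 without combination tumor 8 (121).

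C3, the protein on which all routes converge, had the largest log2 change of the called genes. Its lowest, median and highest counts were 2926, 6341 and 15193 in untreated tumors, 3787, 5966 and 8933 with ADU-S100, 8984, 13390 and 22377 with anti-LTβR, and 9927, 20908 and 26709 with the combination. The combination change was 1.65 (SE 0.315, limma adjusted p = 0.000606), and 6 of 8 tumors lay above the highest untreated tumor. Cfb, which supplies the protease subunit of the alternative convertase, ranged from 1265 to 2293 (median 1386) in untreated tumors, from 1185 to 1759 (1588) with ADU-S100, from 1869 to 2956 (2273) with anti-LTβR, and from 1597 to 4118 (2826) with the combination. Its change was 0.85 (SE 0.188, limma adjusted p = 0.00175), with 6 of 8 tumors above all untreated ones. Because C2 and Cfb adjoin, reads that run from one gene into the other could be counted with either.

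Cfd and Cfp did not differ between combination and untreated tumors beyond the spread. Cfd, the protease adipsin that cuts factor B and is abundant in fat, ranged from 189 to 3196 over the 32 tumors, and its log2 change with the combination was -0.47 (95% interval -1.66 to 0.72), or from -0.72 to -0.15 with single tumors left out. Within the 4 groups it followed the summed count of 7 adipocyte markers (Pearson r = 0.978, permutation p = 1e-05, adjusted 2e-05; Spearman rho = 0.970, permutation p = 1e-05, adjusted 3e-05; 32 tumors, 100000 two-sided permutations within groups). These p-values are the smallest that the permutations can give, and r was 0.975 without the 2 tumors farthest from the median. The marker sum itself ranged from 849 to 6657 in untreated and from 1201 to 5796 in combination tumors, and 0 of 7 markers were called. Cfp, properdin, which stabilises the alternative convertase, averaged 0.25 higher on the log2 scale (95% interval -0.08 to 0.57, adjusted p = 0.205).

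**Figure D3:**
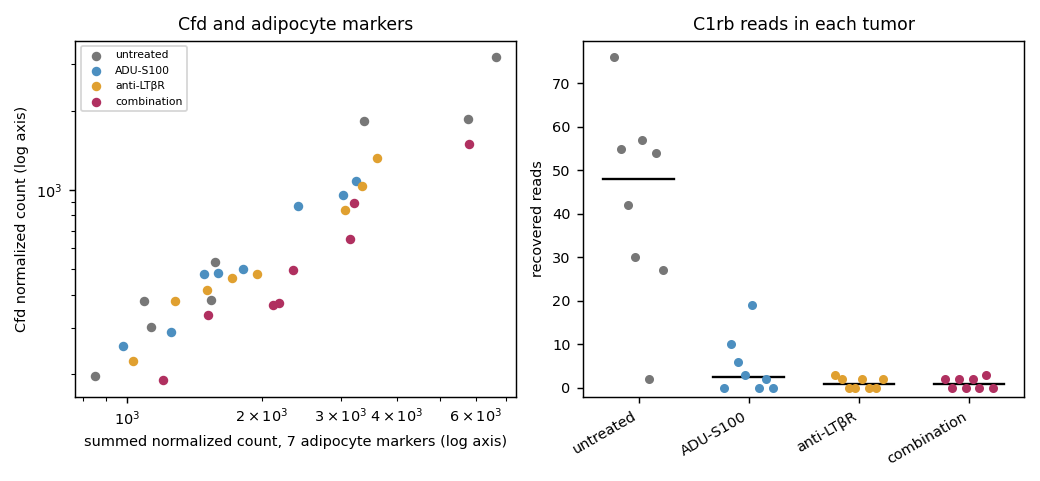
Left, the normalized count of Cfd (y axis) against the summed normalized count of 7 adipocyte markers (x axis), both log axes, with 1 point for each of 32 tumors coloured by group. Right, reads of C1rb (y axis) in each tumor by group (x axis), with a bar at the median of 48 in untreated tumors, 2.5 with ADU-S100 and 1 in both antibody groups. Cfd rises with the adipocyte markers in every group, and 7 of 8 untreated tumors have more C1rb reads than any other tumor.

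Of the terminal components, C7 rose and C6 did not pass. C7 joins the growing pore complex to the membrane. It ranged from 28.1 to 123 (median 55.5) in untreated tumors, from 23.7 to 141 (50.6) with ADU-S100, from 34.4 to 165 (86.4) with anti-LTβR, and from 70.2 to 313 (188) with the combination. The combination change was 1.499 (SE 0.313, limma adjusted p = 0.00118), and 7 of 8 tumors exceeded every untreated tumor. C6, which binds before C7, averaged 41.5 ± 16.2 (SD, n = 8) with the combination and 61.4 ± 29.6 in untreated tumors, a change of -0.55 (95% interval -1.19 to 0.10, adjusted p = 0.16). So these neighbours in the pore had changes of opposite sign, of which only that of C7 passed the test. Their genes lie on the same chromosome, C6 at chr15:4727175-4814967 and C7 at chr15:4988762-5063740.

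Among the regulators, Serping1, Cd55 and Cd59a rose and Cr1l fell. Serping1 encodes C1 inhibitor, which removes active C1r and C1s. Its lowest, median and highest counts were 2194, 3528 and 5300 in untreated tumors, 2469, 2853 and 4341 with ADU-S100, 3092, 4251 and 5213 with anti-LTβR, and 5350, 6388 and 7847 with the combination. No combination tumor overlapped any other group, and the change against untreated tumors was 0.91 (SE 0.140, limma adjusted p = 0.000118). Cd55, which breaks up C3 convertases on the cell surface, ranged from 102 to 239 (median 183) in untreated tumors, from 154 to 278 (204) with ADU-S100, from 140 to 301 (223) with anti-LTβR, and from 227 to 508 (307) with the combination. The combination change was 0.97 (SE 0.216, limma adjusted p = 0.00191), with 6 of 8 tumors above all untreated ones. Cd59a, which blocks the last step of pore assembly, was low, from 15.3 to 48.7 (median 32.3) in untreated tumors, from 18.7 to 62.4 (35.2) with ADU-S100, from 25.8 to 57.9 (46.1) with anti-LTβR, and from 34.7 to 86.6 (56.0) with the combination. Its change was 0.96 (SE 0.258, limma adjusted p = 0.00677), also with 6 of 8 tumors above all untreated ones.

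Cr1l, known as Crry in mice, is a membrane regulator with the combined activities of CD55 and CD46. It was the one gene called lower, and its change was the largest relative to its SE. Counts ran from 1004 to 1222 (median 1164) in untreated tumors, from 941 to 1115 (1008) with ADU-S100, from 866 to 1077 (928) with anti-LTβR, and from 791 to 970 (837) with the combination. All 8 combination tumors lay below all untreated tumors, at a log2 change of -0.44 (SE 0.049, limma adjusted p = 1.47e-05). Of these 3 membrane regulators, Cd55 and Cd59a rose and Cr1l fell, with Cr1l having the highest per-kilobase level of them in untreated tumors (112, against 37.6 for Cd55 and 17.8 for Cd59a). Cd46, a membrane regulator among the further complement genes, had a log2 change of -0.00 (95% interval -0.36 to 0.35, limma adjusted p = 0.988). The 5 markers of epithelium (Krt8, Krt18, Krt19, Epcam and Cdh1) summed to 15947 to 28939 in untreated and 6829 to 14654 in combination tumors, and 3 of the 5 were called lower. Within groups, Cr1l and the epithelial sum had r = 0.399 (permutation p = 0.0265, adjusted 0.0318) and rho = 0.371 (permutation p = 0.0386, adjusted 0.0463) over 32 tumors. This fell to r = 0.308 without the 2 tumors farthest from the median, and r within single groups ran from -0.221 to 0.767. The part of the epithelial markers in the change of Cr1l was not tested.

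The other regulators did not pass. Clu, clusterin, which keeps late complexes soluble, ranged from 199 to 2135 and had a log2 change of -0.44 (95% interval -1.07 to 0.19), or -0.18 without untreated tumor 3, the highest at 2135. Vtn, vitronectin, which does the same, averaged 82.0 with the combination and 32.1 in untreated tumors, and its log2 change of 1.42 had a wide interval (0.21 to 2.64, limma adjusted p = 0.0551). It was called with DESeq2 (adjusted p = 0.0282) and in the joint limma fit (0.0247). Cfi, the protease factor I, had too few counts for the filter, at 1.15 to 21.7 with the combination and 0.985 to 23.4 in untreated tumors (exact permutation test of the means, two-sided p = 0.22).

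Among the receptors, 2 of the 3 leukocyte integrin chains that form complement receptors 3 and 4 rose, and the receptors for C3a and C5a did not pass. Itgb2, the shared β chain, ranged from 1667 to 2560 (median 2154) in untreated tumors, from 1799 to 2757 (2176) with ADU-S100, from 2485 to 3291 (2843) with anti-LTβR, and from 2576 to 4503 (3815) with the combination. The combination did not overlap the untreated group, and the change was 0.78 (SE 0.123, limma adjusted p = 0.000142). Itgax, the α chain of receptor 4, ranged from 803 to 1702 (median 1339) in untreated tumors, from 923 to 1854 (1269) with ADU-S100, from 1190 to 2386 (1700.2) with anti-LTβR, and from 1498 to 2115 (1894) with the combination. Its change was 0.49 (SE 0.128, limma adjusted p = 0.00595), and 6 of 8 tumors lay above all untreated ones. Itgam, the α chain of receptor 3, had a log2 change of 0.25 (95% interval 0.04 to 0.46, adjusted p = 0.054). It was called with DESeq2 (adjusted p = 0.0345) and in the joint limma fit (0.0252).

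Of the receptors for C3a and C5a, C3ar1 had a log2 change of 0.02 (95% interval -0.15 to 0.18), C5ar1 of 0.15 (-0.12 to 0.43) and C5ar2 of 0.18 (-0.12 to 0.47), none past the threshold. With single tumors left out these ran from -0.02 to 0.06 for C3ar1, from 0.08 (without untreated tumor 7) to 0.24 (without untreated tumor 3) for C5ar1 and from 0.12 (without untreated tumor 4 or combination tumor 6) to 0.24 (without untreated tumor 3) for C5ar2. Cr2, the receptor for C3d on B cells and follicular dendritic cells, and Vsig4, the C3b receptor of resident macrophages, failed the filter. Cr2 averaged 6.17 with the combination and 2.62 in untreated tumors (exact permutation test, two-sided p = 0.145), with 22.2 in its highest combination tumor. Vsig4 averaged 4.81 and 4.20 (exact permutation test, two-sided p = 0.701).

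Marker genes of several cell types moved with these results, and their part in them was not tested. In combination against untreated tumors, 5 of 7 macrophage markers were called higher, with a median log2 change of 0.60 over the 7. Their summed count ran from 30680 to 71680 against 16729 to 35357. Lyz2 made up a large part of this sum. In counts normalized together with 20 further libraries, Lyz2 ran from 9985 to 60554 over the 32 tumors. Csf1r, Cd68 and Adgre1 reached at most 5649, 4423 and 1815 there. All 6 fibroblast markers were called higher, with sums of 103262 to 378020 against 61242 to 97735, so the groups did not overlap. All 5 endothelial markers (2175 to 3157 against 1186 to 1721) and all 5 T cell markers (1036 to 1954 against 488 to 1266) were called higher. Fewer markers were called in other lists, with 3 of 4 tested B cell markers, 3 of 5 markers of conventional dendritic cells, 2 of 6 neutrophil markers, 1 of 4 natural killer cell markers and 1 of 2 tested markers of follicular dendritic cells higher. Their summed counts ran from 145 to 727 against 71.7 to 251, from 447 to 645 against 267 to 438, from 5102 to 22238 against 2984 to 7975, from 229 to 361 against 182 to 310.3, and from 353 to 856 against 178 to 449. No skeletal muscle or keratinocyte marker was called, but their sums varied widely. The 5 muscle markers summed to 5104 to 110870 (median 7870) in untreated tumors, 6334 to 202907 (74118) with ADU-S100, 6092 to 146440 (96117) with anti-LTβR and 6121 to 324487 (89293) with the combination. Against untreated tumors the median log2 change of these 5 was 1.56 after ADU-S100, 1.57 after anti-LTβR and 1.47 after both agents, and 0 of 5 were called in each comparison. The keratinocyte markers summed to 2333 to 35690 in untreated and 1435 to 53565 in combination tumors. The epithelial markers that define the labelled pancreatic tumor were detected in every group. In the list of follicular dendritic cells, which shares Fcer2a with the B cell list, 1 of 4 markers had a median below 1 count in all groups but the combination, and in the other lists no marker did in any group.

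The C1q chains were compared with macrophage markers because macrophages are a main source of C1q. Lyz2 made up a large part of the sum of these markers, and relations with single markers were not computed. The sum of C1qa, C1qb and C1qc followed the macrophage sum within groups, with r = 0.808 (permutation p = 1e-05, adjusted 2e-05) and rho = 0.697 (permutation p = 0.00028, adjusted 0.00056) over 32 tumors, and with r = 0.731 without the 2 farthest tumors. Itgb2 followed it with r = 0.802 (permutation p = 1e-05, adjusted 2e-05) and rho = 0.800 (permutation p = 1e-05, adjusted 3e-05), and r = 0.771 without the 2 farthest. C1s1 followed the fibroblast sum with r = 0.583 (permutation p = 0.0006, adjusted 0.0009) and rho = 0.607 (permutation p = 0.00046, adjusted 0.00069), and r = 0.564 without the 2 farthest. C3 did not, at r = -0.211 (permutation p = 0.221, adjusted 0.221) and rho = -0.240 (permutation p = 0.188, adjusted 0.188), and r = -0.132 without the 2 farthest. In all 6 such relations were computed, and the lowest r within a single group was 0.300 for C1q, 0.680 for Itgb2 and 0.363 for C1s1.

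**Figure D4:**
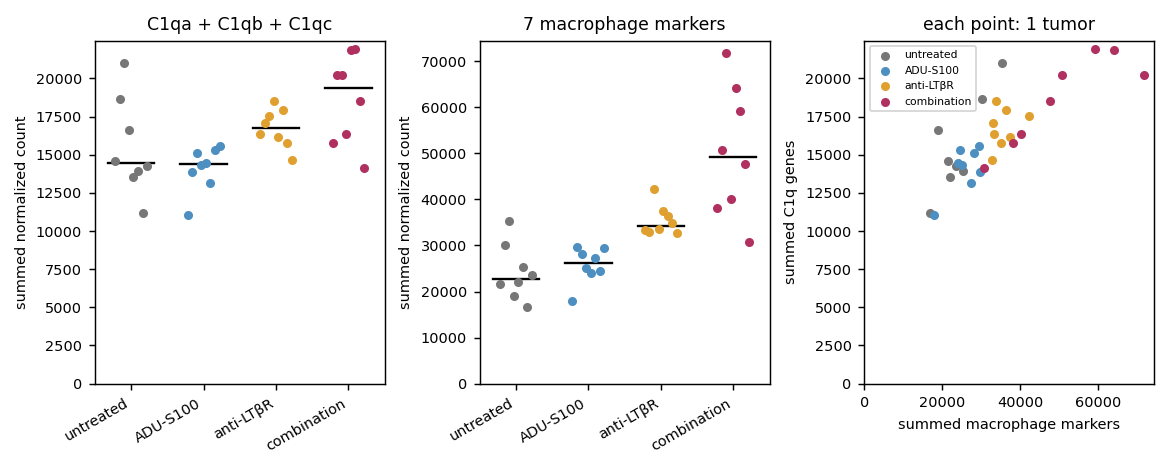
Summed normalized counts (y axes) of the 3 C1q genes and of 7 macrophage markers in each tumor by group (x axes), with a bar at the median, and the C1q sum (y axis) against the macrophage sum (x axis). The macrophage sum ranged from 16729 to 35357 in untreated and from 30680 to 71680 in combination tumors, and the C1q sums of these groups overlapped more. Lyz2 made up a large part of the macrophage sum.

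With anti-LTβR alone, 7 of 29 genes tested were called, against 15.3% of all genes tested. Of these 6 were higher (7.21% of all genes) and 1 lower (8.1%), and for 0 of the 29 did the groups not overlap (1.77% of all genes). Of the called genes C3 rose most (log2 1.26, SE 0.286, limma adjusted p = 0.0106), followed by C1s1 (0.74), Cfb (0.61), C1ra (0.56), C1rl (0.56) and Itgb2 (0.47). Cr1l fell by 0.29 on the log2 scale (SE 0.050, limma adjusted p = 0.00237), with 7 of 8 tumors below all untreated ones. These 7 genes were also called in the same direction with the combination, but both comparisons share the untreated tumors. C3 alone passed 2-fold, against 1.04% of all genes, and 0.601% in anti-LTβR against ADU-S100, where C3 was again the 1 gene. The median was 0.27 over the genes tested and 0.00 over all genes. The fibroblast markers, unlike in the combination, had 0 of 6 called with anti-LTβR alone, with sums of 48346 to 102333. Other lists did move: 4 of 7 macrophage markers were called higher (sums of 32776 to 42312), as were 2 of 5 endothelial, 2 of 5 T cell, 2 of 5 conventional dendritic cell, 1 of 4 tested B cell and 1 of 2 tested follicular dendritic cell markers, and 3 of 5 epithelial markers were called lower (13111 to 16160). Their part in these results was not tested.

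With ADU-S100 alone, 0 of 29 genes were called by limma, against 0% of 16613 genes tested, and 1 of the 29 had an unadjusted p below 0.05. For 0 of the 29 did the groups not overlap, against 0.0421% of all genes. The gene with the low unadjusted p was Cr1l, at -0.18 (SE 0.046, adjusted p = 0.276), which DESeq2 on recovered reads called (adjusted p = 0.035). Side by side, the log2 changes for ADU-S100 first and anti-LTβR second were -0.13 and 0.56 for C1ra, -0.05 and 0.74 for C1s1, -0.01 and 1.26 for C3, and -0.40 and -0.03 for C2. The 95% interval with ADU-S100 was -0.42 to 0.16 for C1ra, -0.44 to 0.34 for C1s1 and -0.62 to 0.60 for C3. Compared directly, anti-LTβR exceeded ADU-S100 for 9 of 29 genes tested, against 6.42% of all genes (3.38% higher and 3.04% lower), and for 0 was it called lower. Over all genes, 563 of 1069 calls were higher, and 532 of 823 with edgeR scaled by library totals. These were the 3 C1q genes, C1ra, C1rl, C1s1, C3, Cfb and Itgb2, and for 2 of the 29, C3 and Cfb, the groups did not overlap (0.625% of all genes). C3 was 1.27 higher (SE 0.182, limma adjusted p = 0.00306) and Cfb 0.60 higher (SE 0.10, limma adjusted p = 0.006). The 3 C1q calls, at 0.25, 0.24 and 0.27, were lost in a joint fit of all 4 groups, with adjusted p = 0.184, 0.183 and 0.116, as was that of Itgb2 (0.37, adjusted p = 0.0528). In this comparison 4 of 7 macrophage, 2 of 2 tested follicular dendritic cell, 2 of 5 T cell, 2 of 5 conventional dendritic cell, 2 of 4 NK cell, 1 of 5 endothelial and 1 of 4 tested B cell markers were called higher and 0 lower, and their part in it was not tested.

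Against anti-LTβR alone, the combination changed 11 of 30 genes tested, 9 higher and 2 lower, against 26.6% of all genes (11.3% higher and 15.3% lower). Over all genes, 1917 of 4504 calls were higher, and 2074 of 3855 with edgeR's RLE scaling. Serping1 alone had groups without overlap (3.15% of all genes), at 0.63 (SE 0.109, limma adjusted p = 0.00118). C7 (1.05, the 1 gene past 2-fold, against 2.11% of all genes), C2 (0.92), C1s1 (0.66), C1ra (0.51), Cd55 (0.50), Cfp (0.33), Itgam (0.31) and Itgb2 (0.31) were also higher. C6 was lower, at -0.94 (SE 0.268, limma adjusted p = 0.017), as was Cr1l, at -0.14 (SE 0.050, limma adjusted p = 0.0439). The call of Cr1l was lost in all 4 fits on recovered reads (adjusted p = 0.0736 to 0.0885 in edgeR and DESeq2), with no filter (0.0712) and with only the libraries above 14000000 reads (0.347). C3 (0.39, 95% interval -0.07 to 0.86) and Cfb (0.25, -0.12 to 0.61) were not called. In the same comparison all 6 fibroblast markers (median log2 change 1.40), all 5 endothelial, 4 of 7 macrophage, 2 of 6 neutrophil, 1 of 5 T cell and 1 of 5 conventional dendritic cell markers were called higher. Of the epithelial markers 3 of 5 were called lower, as was 1 of 2 tested follicular dendritic cell markers, and the part of these lists in the result was not tested. The calls of Cfp and Cd55 were lost in the joint fit of all 4 groups (limma adjusted p = 0.0761 and 0.0553). With no filter on low counts 7 genes were called, and Cfp (0.0518), Cd55 (0.0647) and Itgb2 (0.0508) were lost beside Cr1l. With only the libraries above 14000000 reads 3 were called, C1ra, C1s1 and Serping1, and the calls of C7 (0.0568), C2 (0.0723), Itgam (0.0794), Cd55 (0.136), C6 (0.165), Cfp (0.263) and Itgb2 (0.309) were lost. Against ADU-S100 alone, the combination changed 21 of 30 genes tested, 20 higher and 1 lower, against 46.2% of all genes (20.2% higher and 26% lower). Over all genes, 3391 of 7759 calls were higher, and 3564 of 6916 with edgeR's TMM scaling. C3 at 1.66 and C7 at 1.59 had the largest changes. Of the 30 genes tested, 6 were past 2-fold (6.17% of all genes). The groups did not overlap for 4 of the 30, C1ra, C1s1, C3 and Serping1, a share near that of all genes (12%). C5ar2 was called higher here, also in all 9 alternatives (adjusted p = 0.0037 to 0.0402 in limma, edgeR and DESeq2). The limma call of C4b was lost in the joint fit (adjusted p = 0.0567) and that of Cd59a with a replicate block (0.0736). With only the libraries above 14000000 reads, Cd59a (0.151), C1qa (0.0552) and Itgam (0.116) were lost. C5ar1, Clu and Vtn were gained in other alternatives. Called higher in this comparison were all 6 fibroblast, 6 of 7 macrophage, all 5 endothelial, all 5 T cell, all 4 NK cell, all 4 tested B cell, 4 of 5 conventional dendritic cell, 2 of 6 neutrophil and 1 of 2 tested follicular dendritic cell markers. Of the epithelial markers 3 of 5 were called lower, and the part of these lists was not tested.

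Whether the combination differed from the sum of the single agents was tested as an interaction on the log2 scale over all 32 tumors. It was called for 6 of 30 genes tested, all positive, against 18.4% of all genes (7.33% positive and 11% negative). Over all genes, 1293 of 3240 calls were positive, and with edgeR's RLE scaling 1476 of 2875 were. The largest was C2, whose change was -0.40 after ADU-S100, -0.03 after anti-LTβR and 0.89 after both agents, an interaction of 1.32 (SE 0.291, limma adjusted p = 0.00255). Serping1 followed with single changes of -0.17 and 0.27, a combined change of 0.91 and an interaction of 0.80 (SE 0.204, limma adjusted p = 0.00673). C1s1 (0.71, adjusted p = 0.0346), C1ra (0.64, adjusted p = 0.0153), C5ar2 (0.57, adjusted p = 0.0331) and Cfp (0.54, adjusted p = 0.0455) were the others. Only C2 and Serping1 kept the call with the libraries above 14000000 reads. With no filter on low counts C5ar2 (adjusted p = 0.0509) and Cfp (0.0623) lost theirs, and Cfp also did with a replicate block (0.0651). C7 had the second largest interaction, 1.15, and was not called (95% interval 0.16 to 2.13, adjusted p = 0.0946). For C3 the interaction was 0.41 (95% interval -0.37 to 1.18) and for Cr1l 0.03 (adjusted p = 0.77), so a departure from the sum was not detectable for either. All 6 fibroblast markers also had a called positive interaction, with a median of 1.67, as did 4 of 5 endothelial markers, with a median of 0.74 over the 5. A called positive interaction was also found for 1 marker each of the macrophage (of 7), neutrophil (of 6), T cell (of 5), conventional dendritic cell (of 5), NK cell (of 4), epithelial (of 5) and keratinocyte (of 5) lists, and for 0 markers was it called negative. The part of these lists in the result was not tested.

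**Figure D5:**
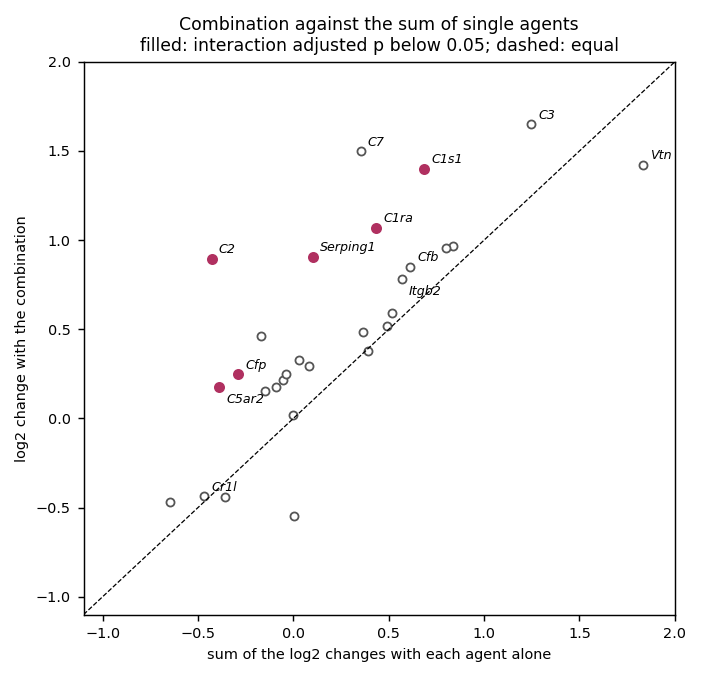
Log2 change with the combination against untreated tumors (y axis) and sum of the log2 changes with each agent alone (x axis) for the 29 genes that passed the filter, with a dashed line where both are equal. The 6 filled points, C2, Serping1, C1s1, C1ra, C5ar2 and Cfp, lie above the line and had a called interaction, C7 and C3 lie 1.15 and 0.41 above it without one, and Cr1l lies 0.03 above it.

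Of 39 further complement genes, 25 were in the table and 15 passed the filter for the combination against untreated tumors. Of these 8 were called, 7 higher and 1 lower, against the same 43.2% of all genes. Hc, the gene of C5, rose by 1.25 (SE 0.375, limma adjusted p = 0.0129), and C8g, a chain of the pore component C8, by 0.78 (SE 0.203, limma adjusted p = 0.00546). Higher too were Csmd1 (1.40), a membrane inhibitor with complement control domains, Scarf1 (1.28), a scavenger receptor that binds C1q, Thbd (0.93), thrombomodulin, Colec12 (0.79), a membrane collectin, and Cd93 (0.64), an endothelial and myeloid membrane protein. C1qbp, a mitochondrial protein that also binds C1q, fell by 0.33 on the log2 scale (SE 0.073, limma adjusted p = 0.00185). For the interaction 7 of the 18 further genes tested were called, against 18.4% of all genes. The 7 include C1rb, which had at most 3 reads in any tumor given anti-LTβR, so its call measures no joint effect. Of the others, Hc (3.10), C1s2 (1.33, at most 25 reads in any tumor) and Thbd (0.83) were positive. Csmd1 (-1.08), Megf10 (-0.75) and Lrp1 (-0.38) were negative.

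C1rb, the near copy of C1ra, ran against it. Its reads numbered 76, 55, 42, 30, 57, 2, 54 and 27 in untreated tumors 1 to 8 and 0, 10, 6, 3, 19, 0, 2 and 0 with ADU-S100. With anti-LTβR they numbered 3, 2, 0, 0, 2, 0, 0 and 2, and with the combination 2, 0, 2, 0, 2, 0, 3 and 0. Untreated tumor 6 was the one untreated tumor within the range of the treated tumors. C1rb failed the filter in the comparisons of the combination and of anti-LTβR with untreated tumors, and without the filter its combination change was -4.24 (SE 0.577, limma adjusted p = 5.92e-05). For ADU-S100 against untreated tumors it passed the filter and was not called (log2 -3.25, SE 0.744, limma adjusted p = 0.276). It passed there through the untreated tumors, where it was high. Both groups given anti-LTβR had at most 3 reads in any tumor, so its interaction measures no joint effect and its value is not given. Its transcript is 98.1% identical to that of C1ra over 2427 aligned bases, so reads could be split between them, and over 8 tumors C1ra had 11624 reads in untreated and 24235 in combination tumors against 343 and 9 for C1rb. C4a, which is 96.2% identical to C4b, and C1s2, 96.1% identical to C1s1, had at most 53 and 25 reads in any tumor. Cd59a and Cd59b are 90.5% identical, and how shared reads were counted is not given in the sources used here.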

How the data were processed

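RNA of 32 tumors was sequenced as poly(A)-selected libraries, 8 per group, and each sample was grouped by its treatment label. The authors deposited normalized counts per gene (a signal whose values need not be whole). The submitters' processing notes name cutadapt 1.9, FastQC, HISAT2, StringTie, STAR, Partek, DESeq2 and edgeR and the build mm39, while the study's methods name the Ensembl release 101 genome. The name of the 32-tumor table names Partek, and which steps lay behind each table is not given in the sources used here. A larger table of normalized counts for 52 libraries, which the authors also deposited as a signal, gave whole reads for 100.0% of values (tolerance 0.02 reads), and these recovered reads gave the depth and the count-based alternatives. It lacks Cfp and Serping1, so these had no test on reads. Its 20 libraries of a second experiment, 15 with contradictory labels and 5 of a combination group, entered no comparison. A table of the authors' gene set enrichment was not used.

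Genes were filtered with filterByExpr of edgeR 4.0.16 (minimum count 10), and log2(value + 1) was tested with limma 3.58.1 in R 4.3.3 (trend, empirical Bayes) between pairs of groups or, for the interaction, over all 4 groups, at an adjusted p of 0.05. The study's own rule, which also asks for a 2-fold change, was counted beside it. Every gene of the list is named, and those called in the combination against untreated tumors are given in full. Alternatives used no filter, a pseudocount of 0.1, edgeR and DESeq2 1.42.0 on recovered reads, a joint fit, a replicate block, the libraries above 14000000 reads, and each library left out. The scripts were tested on simulated data. The 32 genes, the further complement genes and the marker lists were chosen with earlier results of these data known. Precision was limited by 8 tumors per group, whose depths were similar. The p-values measure the spread between separate tumors of 1 cell line. The sources used here do not state how many mice bore the sequenced tumors. Any tumors that shared a host would have been treated as separate. One further allele of the tumor line and 1 further complement gene are not reported here.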

Additional observations from a re-analysis of the deposited data

Results flagged for a closer look

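Single tumors stood apart from the other 7 of their group in 8 of 128 groups of values tested with Dixon's criterion (critical value 0.526), and chance flags about 1 in 20 groups. ADU-S100 tumor 1 was the lowest of its group for C1qb (3347), C1qc (3957) and C3ar1 (975). Untreated tumor 3 was the highest of its group for Fcna (216) and Clu (2135). Untreated tumor 5 was the lowest for Cr1l (1004), combination tumor 5 the highest for Cfp (1261), and combination tumor 1 the lowest for Vsig4 (0).

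The effect of each agent differed with the presence of the other for 6 of 30 genes tested, by the interaction test in limma, against 18.4% of all genes, so this count lay near the background. With only the libraries above 14000000 reads, C2 and Serping1 kept the call. The interactions were 1.32 for C2, 0.80 for Serping1, 0.71 for C1s1, 0.64 for C1ra, 0.57 for C5ar2 and 0.54 for Cfp on the log2 scale.

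In the second experiment, which entered no comparison, 1 library of the combination group had 225948 normalized counts of C1qa, 121657 of C1qb, 87320 of C1qc and 1386 of C1rl. Each was more than 10 times the highest untreated tumor of the first experiment in the same table (7776, 6258, 7233 and 126). A library without a usable group label had 79079, 62236 and 49335 of the C1q genes, while the other 18 lay between 6811 and 18520 for C1qa. These 2 libraries had summed normalized counts of 32925240 and 22113966, against 14548987 to 18027930 in the other 18. The macrophage markers examined there were divided. These 2 libraries had the highest values of Lyz2, Csf1r and Cd68, with 28456 and 9520 of Csf1r (at most 7194 in the other 18) and 14823 and 5807 of Cd68 (at most 3704), whereas the highest values of Adgre1 (2761 and 2715) were in other libraries. In both libraries Itgam (767 and 1079) was below the other 18 (1415 to 3099). The part of the totals and of these markers in the C1q values was not tested.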

How the results depend on the processing

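Of 2684 recomputed values of single genes, 2588 kept their side of the threshold, 51 lost a call and 45 gained one. The direction of a called value reversed in 0, while values near 0 that were not called changed sign in some alternatives. The 2-fold rule left 4 genes for the combination against untreated tumors, 1 for anti-LTβR against untreated, 1 for the combination against anti-LTβR, 6 for the combination against ADU-S100 and 1 for anti-LTβR against ADU-S100. DESeq2 called 1 gene for ADU-S100 against untreated tumors, and 0.254% of all genes. For the combination against anti-LTβR, no filter gave 7 genes (14% of all genes) and the libraries above 14000000 reads gave 3 (8.54%). For anti-LTβR against ADU-S100 the joint fit gave 5 (2.69% of all genes), and for the interaction the libraries above 14000000 reads gave 2 (8.84%). These last fits had 4 fewer libraries for the combination against anti-LTβR and 7 fewer for the interaction. Leaving out 1 library gave 14 to 19 genes for the combination against untreated tumors (38.4% to 43% of all genes) and 7 to 9 for anti-LTβR (9.4% to 17.4%). C1qb was the only gene to lose its combination call, in 10 of these 16 fits. Without untreated tumor 3, C1qc, C4b, Cfp and Vtn were called (adjusted p = 0.0158, 0.00942, 0.0253 and 0.0257, limma). C1qc was also gained without untreated tumor 2 or combination tumor 1, 4 or 8. Vtn was also gained without untreated tumor 2 or 5 or combination tumor 1 or 8. Itgam was gained without untreated tumor 8 or combination tumor 4. Same-numbered tumors had a correlation over 0.1 in 2 to 6 of 8 pairs, with means from -0.0855 to 0.186, and at most 3 of 8 tumors correlated best with their own number, so the numbers were not taken to pair the tumors. A replicate block gave 18 genes for the combination against untreated tumors (41% of all genes), with C1qc, Vtn and Itgam gained (adjusted p = 0.0474, 0.0405 and 0.0414). It gave 7 for anti-LTβR (9.95%), 0 for ADU-S100 (0.012%), 12 for the combination against anti-LTβR (26.9%), 21 against ADU-S100 (43.3%), 6 for anti-LTβR against ADU-S100 (2.67%) and 5 for the interaction (18.7%).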

Other observations

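In the 20 libraries of the second experiment, C1rb was at most 10.5 normalized counts, with a median of 0. In the same table the 8 untreated tumors of the first experiment ranged from 2.30 to 77.2. C4b reached 25959 in the combination library with the highest C1q counts, against 1209 to 5307 in the 18 other libraries, and Clu reached 4201 against 471 to 2130. C7 was listed at 0 there, against 2.70 to 424, and Cr1l was 714, against 797 to 1326. The library with the next highest C1q counts, whose labels contradict each other, is not among the 18 and also lay outside these ranges, with C4b at 7366, Clu at 3338, C7 at 1.38 and Cr1l at 725. C3, at 12813, lay within the range of the 18 (1985 to 39247). The group labels of 15 of these libraries contradict each other, so no difference between groups was tested and these ranges are set side by side as a description.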
